A study of Drosophila melanogaster with 2 samples.

Results

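The 7 genes described here encode lipases and lipid droplet proteins of Drosophila melanogaster. They are the lipase genes bmm, Hsl, mag, Lip4 and CG5966 and the perilipin genes Lsd-1 and Lsd-2. They were chosen by name, and all 7 were found among the 13945 protein-coding genes on the 6 main chromosome arms in Ensembl's annotation of dm6 (BDGP6). At each of them the peaks of the nuclear receptor Hr96 were read from deposited ChIP-seq peak lists. The flies were whole adult females of unknown age from a transgenic line that stably expresses Hr96 with eGFP at its C-terminus, and an antibody to GFP was used for the precipitation. The single group holds 2 biological replicates, numbered 1 and 3. All samples carry the fusion, none is an untagged control, 1 control file served both replicates, and chromatin came from every tissue at once, so a site used in a single tissue is diluted by the others.

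A triglyceride store is a droplet of neutral lipid under a coat of perilipins, and lipases reach the lipid through that coat. In the fly fat body, the lipase Brummer (bmm) and hormone-sensitive lipase (Hsl) break down stored fat inside cells, while other lipases are secreted or lysosomal and act on dietary or engulfed lipid. Hr96 is known for control of triglyceride and cholesterol balance in the fly, and mag, a lipase of the gut, is a gene reported as its target.

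Each list gives a peak a summit position and a signal, the authors' own value of its strength over a control. Its scale was set separately for each replicate and for the pooled replicates. Ranks therefore serve to set lists side by side, with rank 1 the strongest. The lists of replicate 1, replicate 3 and the pooled replicates hold 30000 peaks and background regions each. The IDR list, meant to select for reproducibility between replicates, holds exactly the 3607 strongest of the pooled list with their pooled signals. A peak in it is thus strong in the pooled list but need not recur in both replicates. Its weakest peak has a signal of 59.9. A gene is called bound here where an IDR summit lies within 500 bp of one of its transcription start sites (TSSs). Summits of 1 list are seldom closer than 200 bp, so a broad stretch of signal can appear as several summits. The sources used here give no read totals, and the depth behind a peak is unknown.

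The sequences under 5 of the summits are given first, because these summits carry most of what follows: the promoter sites of bmm and CG5966 and the strongest intron sites of bmm and Lsd-2. Each is the plus strand of dm6, 5′ to 3′, from the RefSeq copy of that assembly, within 100 bp of a summit and shortened where an exon begins. Capitals mark matches on either strand to 8 short words, namely AGGTCA (the core of nuclear receptor sites), AGTGCA (the same bases in another order), TATCGATA (the DRE), GGTCACACT (M1BP), GTAAACA (forkhead), GAGAGA (bound by Trl), TATAAA (the basal promoter element bound by Tbp) and CACGTG (E-box).
bmm, summit 329 bp upstream of the TSS, chr3L:14786641-14786790: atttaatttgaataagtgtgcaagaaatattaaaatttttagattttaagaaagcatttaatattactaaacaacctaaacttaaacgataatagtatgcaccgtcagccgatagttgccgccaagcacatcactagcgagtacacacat
bmm, summit 83 bp upstream, chr3L:14786413-14786595: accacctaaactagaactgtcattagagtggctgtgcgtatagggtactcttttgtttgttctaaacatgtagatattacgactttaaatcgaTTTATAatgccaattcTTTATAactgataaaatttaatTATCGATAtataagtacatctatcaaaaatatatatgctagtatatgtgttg
bmm, first intron, summit 682 bp downstream, chr3L:14785630-14785830: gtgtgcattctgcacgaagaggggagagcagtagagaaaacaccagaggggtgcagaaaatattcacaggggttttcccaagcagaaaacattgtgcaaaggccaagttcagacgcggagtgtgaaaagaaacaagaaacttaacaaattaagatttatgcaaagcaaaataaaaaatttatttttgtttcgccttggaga
Lsd-2, intron, summit 1125 bp downstream, chrX:15074995-15075195: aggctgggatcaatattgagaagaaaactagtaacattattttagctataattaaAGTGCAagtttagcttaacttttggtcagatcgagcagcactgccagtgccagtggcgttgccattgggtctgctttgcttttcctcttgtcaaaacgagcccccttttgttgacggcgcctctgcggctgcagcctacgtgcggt
CG5966, summit 453 bp upstream, chrX:5988238-5988438: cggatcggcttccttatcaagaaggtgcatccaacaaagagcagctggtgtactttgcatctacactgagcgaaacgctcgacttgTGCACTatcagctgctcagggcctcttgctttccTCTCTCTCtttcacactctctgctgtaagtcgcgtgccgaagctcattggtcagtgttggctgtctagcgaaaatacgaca

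The bmm sequence nearest to the TSS held 1 DRE, the promoter element of the factor DREF, with 2 TATAAA matches beside it. A DRE occurs within 100 bp of 4.46% of all IDR summits, and TATAAA within 100 bp of 28.6%. The bmm windows at 329 bp upstream and 682 bp downstream held none of the 8 words. The CG5966 window held AGTGCA (16.2% of IDR summits) and a pair of overlapping GAGAGA matches (13.5%), and the Lsd-2 intron window held AGTGCA alone. AGGTCA lay within 100 bp of none of the 10 IDR summits searched at bmm, CG5966 and Lsd-2, where 3.52% of all IDR summits have it. Hsl was left out of the search. AGGTCA occurred once near a weaker CG5966 summit of the pooled list, 242 bp upstream of the TSS and of rank 3922. From 250 bp before to 50 bp after a TSS, AGGTCA was present at CG5966 and at the downstream TSS of Lsd-1, against 5.69% of all protein-coding TSSs. In that window bmm alone of the 6 genes searched held a DRE, against 7.99% of all. The windows of the 10 IDR summits had a GC content of 29.4 to 51.7%, around the median of 39.3% for all IDR summits. A match to a word is a match of letters only. Which of the 8 words Hr96 itself binds was not tested, and AGTGCA is not shown to be a word without function.

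Hr96 peaks lay at the promoters of 4 of the 7 genes: bmm, Lsd-2, CG5966 and Hsl. Of all protein-coding genes, 18.1% were called bound by the same rule, 12.8% of those with 1 annotated TSS and 32.9% of those with more. Within 1 gene, the TSS number ranged from 1 (bmm, mag, CG5966, Lsd-2) through 2 (Lsd-1) to 3 (Hsl, Lip4). Lip4, Lsd-1 and mag were not bound. The same 4 genes were bound among the 3607 strongest peaks of replicate 1 alone (18.6% of all genes) and of replicate 3 alone (18.4%). With 7 genes the count is a description of these genes, and no test was made of it.

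**Figure D1:**
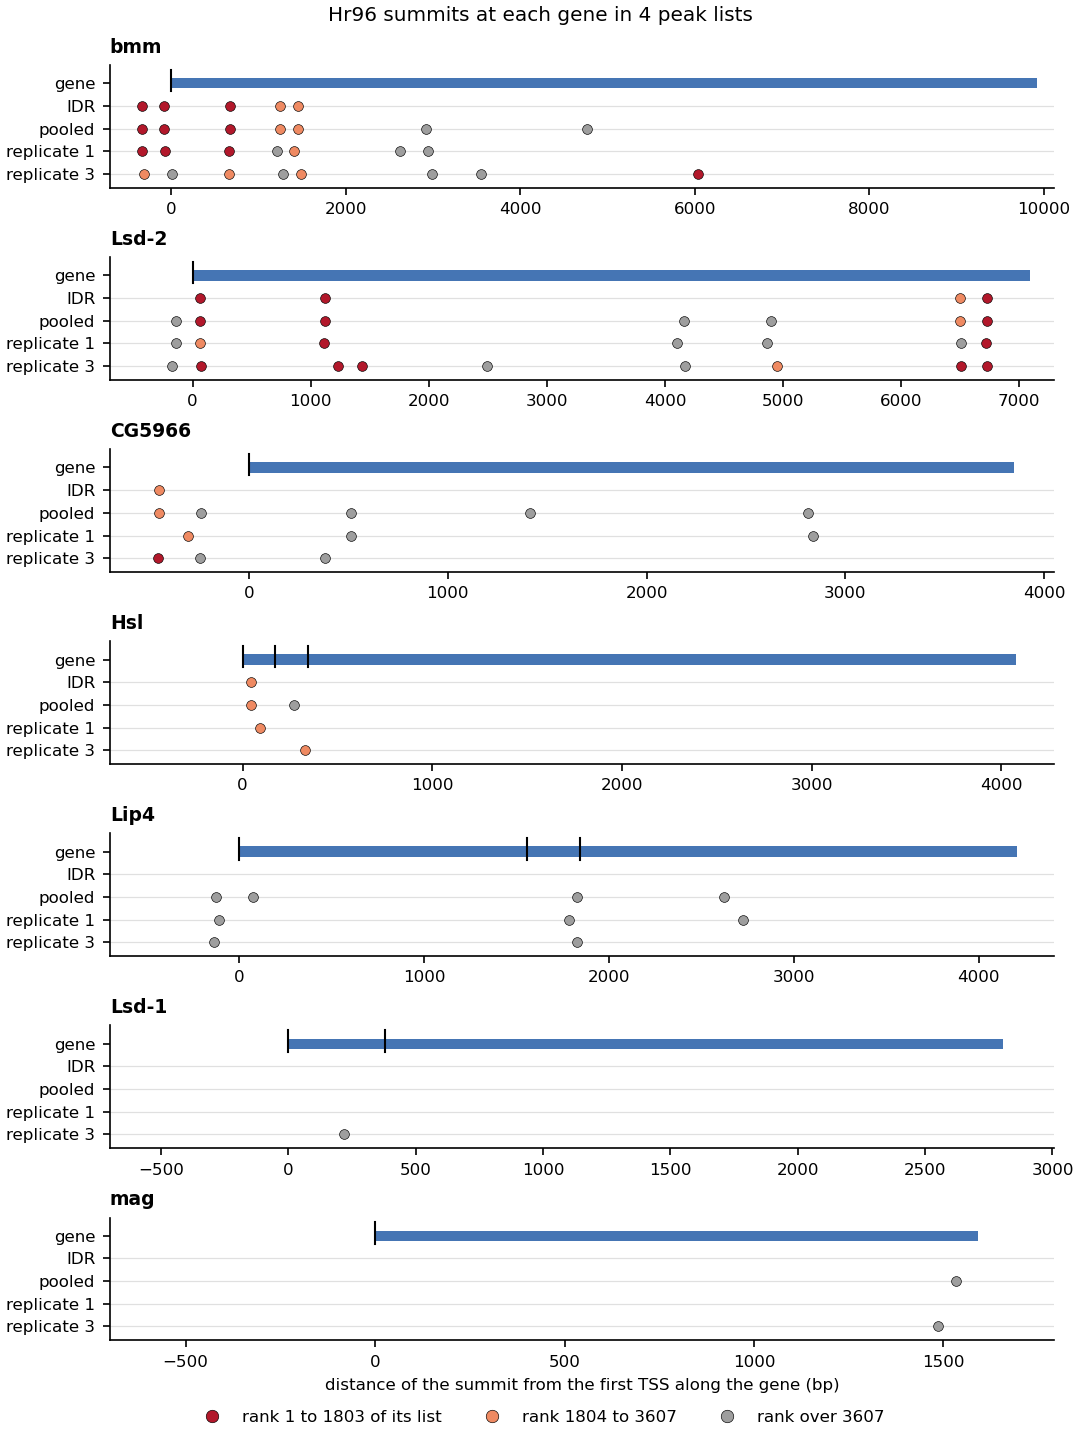
Position of each Hr96 summit at a promoter or inside the gene, in bp along the gene from its first TSS (upstream is negative), for the 7 genes and 4 peak lists. The blue bar is the gene, black ticks are TSSs, and colour gives the rank of the summit within its own list: bmm and Lsd-2 have the most IDR summits (5 and 4), and Lip4, Lsd-1 and mag have none.

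The promoter peaks were of middle to low strength for an IDR peak. Ordered by the strongest promoter summit among 2526 bound genes, Lsd-2 was at place 1426, bmm at 1440, CG5966 at 1925 and Hsl at 2279. Their IDR signals were 112.0, 111.2, 82.6 and 67.9, against a median of 126.2 over all bound genes. That order differed between the replicates. In replicate 1 the strongest promoter signals ran from bmm (86.6) through Lsd-2 (63.5) and Hsl (56.2) to CG5966 (44.9). In replicate 3 they ran from CG5966 (52.7) through Lsd-2 (48.9) and Hsl (34.2) to bmm (31.6). No order among the 4 bound genes therefore held in both replicates except Lsd-2 above Hsl, while Lip4 was below all 4 in each (23.6 and 26.0).

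**Figure D2:**
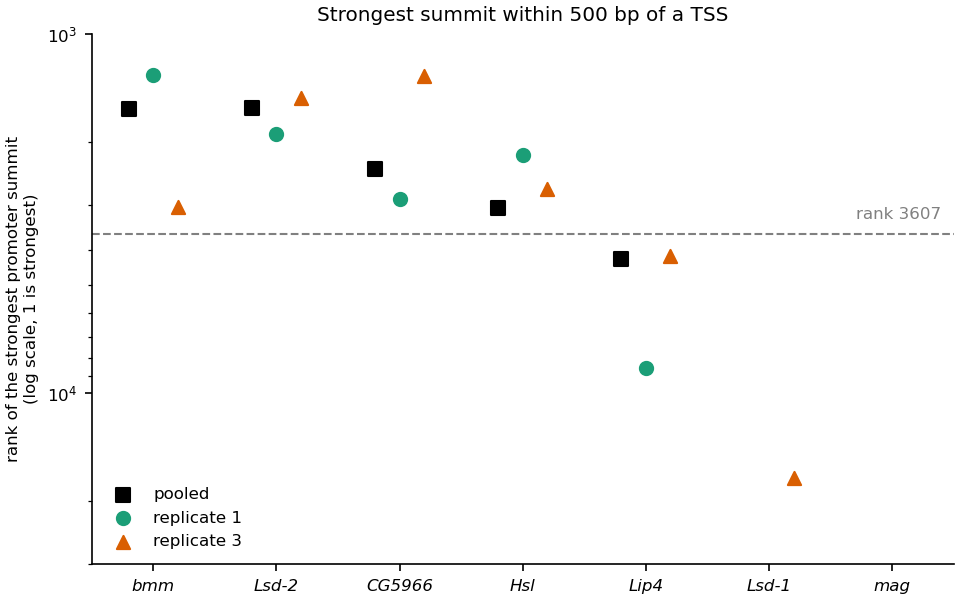
Rank of the strongest summit within 500 bp of a TSS for each gene in the pooled list and in each replicate, on a log axis with rank 1 the strongest. The dashed line is rank 3607, the size of the IDR list: bmm, Lsd-2, CG5966 and Hsl lie above it in all 3 lists, Lip4 below it, Lsd-1 has a summit in replicate 3 alone and mag has no point.

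The lipases that act inside cells differed in the number of their peaks. The gene bmm (FBgn0036449, chromosome 3L, 14776496 to 14786412, minus strand) encodes the fly counterpart of mammalian adipose triglyceride lipase, the main lipase of stored fat. It had 5 IDR summits, 2 at the promoter and 3 in introns, all from 329 bp upstream to 1454 bp downstream of its TSS. A pair or more of IDR summits within 500 bp of a TSS was found in 2.78% of protein-coding genes. At least 4 summits at the promoter or inside the gene were found in 0.832% of genes. The share was 1.41% among genes of 5000 to 15000 bp, the range that holds bmm (9917 bp) and Lsd-2 (7094 bp). The cut of 4 equals the count of Lsd-2 itself, and the pair equals that of the bmm promoter. These shares are therefore a description and no test.

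The strongest of the bmm summits lay in an intron, 682 bp downstream of the TSS. Its pooled signal was 139.4 (rank 1201), with 108.5 in replicate 1 (rank 985) and 36.9 in replicate 3 (rank 2388), and the replicate summits were 18 and 15 bp from the pooled one. The promoter summit 329 bp upstream had a pooled signal of 111.2 (rank 1622), with 81.6 in replicate 1 (rank 1412) and 31.6 in replicate 3 (rank 3040). The other promoter summit, 83 bp upstream, had 108.9 (rank 1672), with 86.6 in replicate 1 (rank 1302) but 21.4 in replicate 3, where it ranked 5522 and lay 93 bp away, 10 bp inside the transcript. Each of these bmm sites thus had a better rank in replicate 1 than in replicate 3.

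The remaining bmm IDR summits stood 202 bp apart in the same stretch of intron. That at 1454 bp downstream had a pooled signal of 94.8 (rank 1986; replicate ranks of 2086 and 2386), and that at 1252 bp downstream 82.4 (rank 2393), with ranks of only 5927 in replicate 1 and 3750 in replicate 3. All 5 IDR summits had a summit within 100 bp in both replicates. Farther in, replicate 3 had a bmm summit 6041 bp downstream with a signal of 46.7 (rank 1615), its best-ranked bmm summit, which had no counterpart inside the gene in the pooled list or in replicate 1.

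The promoter peaks of bmm cannot be assigned to bmm alone. Tdrd3, which encodes a Tudor domain protein, starts 379 bp away on the opposite strand, and the summit 329 bp upstream of bmm lay 50 bp from the Tdrd3 TSS. The summit 83 bp upstream of bmm was 296 bp from it. The intron summits were over 500 bp from every TSS of another protein-coding gene. The nearest IDR summit outside bmm was 4025 bp upstream, at the promoter of the helicase gene Helz, with a signal of 399.2 (rank 197). The nearest of the pooled list was 3453 bp upstream, also near the Helz TSS, with a signal of 25.8 (rank 18553).

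Hsl (FBgn0034491, chromosome 2R, 20257650 to 20261726, plus strand) encodes the counterpart of mammalian hormone-sensitive lipase, which cleaves diacylglycerol and sterol esters. It had 1 IDR summit, 45 bp downstream of its first TSS in the 5′ untranslated region, with a signal of 67.9 at rank 3065 of 3607. A second pooled summit 227 bp further on ranked 4891 (signal 47.2). Each replicate had a single Hsl summit, and the positions differed. That of replicate 1 (signal 56.2, rank 2180) was 49 bp from the IDR summit, while that of replicate 3 (34.2, rank 2710) was 284 bp from it and 14 bp upstream of the third TSS. No list had a summit elsewhere in the gene. The IDR summit was also 305 bp from the TSS of Ate1, an arginyltransferase gene on the opposite strand. The nearest IDR summit outside Hsl lay 2258 bp past its 3′ end, at the promoters of RpS18 and plu (signal 190.8, rank 768).

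Among the lipases thought to act outside the cytosol, CG5966 alone was bound. CG5966 (FBgn0029831, X chromosome, 5988791 to 5992640, plus strand) is predicted from its sequence to encode a lipase of the pancreatic type. Its IDR summit was 453 bp upstream of the TSS, with a signal of 82.6 (rank 2386), near the 500 bp limit. In replicate 3 a summit 5 bp away had a signal of 52.7 (rank 1313), the highest of any promoter summit of the 7 genes in that replicate. The nearest summit of replicate 1 was 148 bp away, 305 bp upstream of the TSS, with a signal of 44.9 (rank 2877). The pooled list had a second summit 242 bp upstream (signal 56.5, rank 3922), just outside the IDR list. It was 63 bp from the summit of replicate 1 and 5 bp from a weaker one of replicate 3 (16.3, rank 9048). The replicates thus differed in where along this stretch the signal was highest, and no other protein-coding gene starts within 500 bp of the IDR summit. With a TSS window of 250 bp, by which 15.0% of all genes were bound, CG5966 was no longer called.

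Inside CG5966 the pooled list had 3 further summits of ranks 6584 to 27568, and replicate 1 had 2, of ranks 4607 and 19702. The strongest, in a coding exon 511 bp downstream, had a pooled signal of 39.3 and lay 3 bp from a summit of replicate 1 (31.7). Replicate 3 had only a weak summit 128 bp from it (11.5, rank 19607). The nearest IDR summit outside CG5966 was 8457 bp past its 3′ end, 300 bp from the TSS of CG4766.

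Lip4 (FBgn0032264, chromosome 2L, 10527572 to 10531778, plus strand), which encodes a lipase of the acid lipase family, had promoter summits outside the IDR list only. The lists that hold them include background regions, so they are not shown to be peaks. The pooled summit was 125 bp upstream of the first TSS with a signal of 52.5, against the 59.9 of the weakest IDR peak, and ranked 4252. It recurred at the same place in both replicates, 16 bp away in replicate 1 (signal 23.6, rank 8549) and 12 bp away in replicate 3 (26.0, rank 4147). Somewhere in the pooled list, 39.5% of all protein-coding genes had a promoter summit, 39.0% in replicate 1 and 44.2% in replicate 3. These shares count summits of any rank, down to the weakest of each list, and the share with a summit as strong as that of Lip4 and matched in both replicates was not computed. A weaker summit at the third Lip4 TSS (17 bp upstream, signal 28.5, rank 14168) was likewise found in both replicates, at ranks of 20437 and 20964. No IDR summit was nearer than 10600 bp, at Fatp1 and Lrr47 (signal 105.2).

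The gut lipase gene mag (FBgn0036996, chromosome 3L, 20460683 to 20462274, plus strand) had no promoter summit in any of the 4 lists. The gene is nested inside atk, which runs on the opposite strand. The only mag summits were near its 3′ end, in the 3′ untranslated region. The pooled one was 1533 bp downstream of the TSS with a signal of 29.3 (rank 13133), and that of replicate 3 was 48 bp away with a signal of 24.3 (rank 4590). Replicate 1 had none inside the gene, and its nearest was 2332 bp past the 3′ end (15.8, rank 25127). The nearest IDR summit was 9643 bp past the 3′ end, in CG32428 (signal 70.8, rank 2916).

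Of the perilipin genes, Lsd-2 was bound and Lsd-1 was not. Lsd-2 (FBgn0030608, X chromosome, 15069127 to 15076220, minus strand) encodes the perilipin that shields droplet fat from lipases. It had 4 IDR summits, and among them the strongest of any of the 7 genes. That summit lay in an intron 1125 bp downstream of the TSS, with a signal of 317.9 at rank 312. In replicate 1 the signal was 262.7 at rank 223, 13 bp away. In replicate 3 a pair of summits lay further into the gene, at 1431 bp (signal 130.9, rank 200) and 1232 bp (76.9, rank 663) downstream, the latter 107 bp from the pooled summit and so just past the matching distance of 100 bp. Both replicates thus ranked an intron site of Lsd-2 among their 223 strongest, 1112 bp downstream in replicate 1 and 1431 bp in replicate 3.

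The Lsd-2 promoter summit was the most reproducible of the promoter peaks. It lay 67 bp downstream of the TSS in the 5′ untranslated region, with an IDR signal of 112.0 (rank 1607). In replicate 1 it had a signal of 63.5 (rank 1907) at the same base, and in replicate 3 48.9 (rank 1508), 1 bp away. A weaker pooled summit 144 bp upstream of the TSS (36.2, rank 7730) was also found in both replicates, at ranks of 5881 and 13873. No other protein-coding gene starts within 500 bp, so this peak is not shared with another promoter.

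The other pair of IDR summits in Lsd-2 lay in its 3′ untranslated region. That 6724 bp downstream of the TSS had a signal of 221.1 (rank 610), with 113.2 in replicate 1 (rank 920) and 113.1 in replicate 3 (rank 282), within 10 bp in each. That 6497 bp downstream had 87.9 (rank 2200), with 29.6 in replicate 1 (rank 5156) and 49.2 in replicate 3 (rank 1489). Pooled summits 4901 and 4162 bp downstream, also in the 3′ untranslated region, ranked 4985 and 5292, outside the IDR list, and had matches in both replicates. The gene next to this end is dob, named for its likeness to the bmm lipase, which ends 35 bp before Lsd-2 on the opposite strand. It was picked out after its position was seen. The strongest of the 3′ summits was 405 bp past the 3′ end of dob, and dob had no promoter summit in any list and 1 summit inside the gene, in replicate 3 (signal 23.4). Upstream of Lsd-2, the nearest IDR summit was 1768 bp from its TSS (signal 89.5, rank 2146), inside the non-coding gene lncRNA:CR44662.

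Lsd-1 (FBgn0039114, chromosome 3R, 23763857 to 23766662, plus strand), the perilipin through which hormone signals open droplets to lipases, had no summit in the pooled list, in the IDR list or in replicate 1. Replicate 3 had 1, in the 5′ untranslated region 163 bp upstream of the second TSS, with a signal of 12.1 at rank 17311 of 30000. The nearest pooled summit was 579 bp upstream of the first TSS and 15 bp from the TSS of udt (signal 32.5, rank 10024). The nearest IDR summit was 872 bp past the 3′ end of Lsd-1, at the promoters of CG10214 and CG10375 (135.4, rank 1246), and replicate 1 had it too (93.1, rank 1190). The 3′ flank of Lsd-1 thus held an IDR peak, while the upstream summit near udt was outside the IDR list. The gene itself had only the weak summit of replicate 3.

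Over the 7 genes the IDR list had 11 summits at promoters or inside genes. Of these, 4 were intronic, 3 upstream of the transcript, 2 in 5′ and 2 in 3′ untranslated regions, and none in a coding exon. Their signals ran from 67.9 to 317.9 with a median of 108.9, against a median of 102.6 for the whole IDR list. The pooled list had 26, replicate 1 had 21 and replicate 3 had 25. An IDR promoter summit matched within 100 bp in both replicates was found for bmm and Lsd-2 (15.2% of all protein-coding genes), while for Hsl and CG5966 the IDR promoter summit was matched in 1 replicate each. Weaker pooled promoter summits outside the IDR list were matched in both replicates at CG5966, Lsd-2 and Lip4, as given above. Among the 1803 strongest IDR peaks, where 11.3% of genes were bound, the bound members were again bmm and Lsd-2.

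The genes most like each bound member in rank were found by the largest difference in percentile rank of the promoter summit over 3 lists (pooled, replicate 1, replicate 3), among 3792 genes with a summit in all. For bmm they were Tdrd3, which shares its peak, and dikar (0.427 percentile points). For Lsd-2 they were Sply and CG6984, which share a peak (0.0567 points). For CG5966 they were CG10444 and CG11788, which also share a peak (0.357), and for Hsl they were hppy (0.960) and step (1.16). With 3 lists, 1 of them made from the other two, likeness in rank says only that these peaks are of similar strength.

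None of the other genes in the lipase list written here had a promoter peak in the IDR list. Hydrolase genes placed in the droplet list below, such as the bound puml, are not among them. Of 47 further lipases and lipase-like genes, among them the yolk proteins, which have a lipase fold, 0 were bound, against 18.1% of all protein-coding genes. Counting error alone would allow a share of up to 6.38% if the genes were independent. A single TSS was annotated for 78.7% of the 47 and for 73.5% of all genes. Many of these genes lie in tandem clusters, so they are not independent of each other, and the list was written with earlier results known. The limit is therefore no test against the share of all genes. In the pooled list 16 of the 47 had a promoter summit, against 39.5% of all. Without replicate 1, that is among the strongest peaks of replicate 3, 1 gene was bound, CG17292, against 18.4% of all genes. Inside genes, Lip2 (signal 170.3, rank 904) and CG10357 (159.7, rank 979) had an IDR summit. That in Lip2 was intronic and also near the TSS of CG6415, and that in CG10357 was in the 3′ untranslated region. These 3 were picked out after their values were seen. By the wider rule of promoter or gene body, 21.1% of all genes were counted.

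Of 24 genes for lipid droplet proteins and for making or moving droplets, 8 were bound (33.3%, against 18.1% of all protein-coding genes), and 7 of these had an IDR summit matched in both replicates (15.2% of all). The strongest peaks were at alphaCOP, a subunit of the COPI coat that acts on droplets (signal 357.2, rank 244; replicate ranks of 331 and 168), and puml, a hydrolase that modulates fat storage (273.6, rank 424; replicate ranks of 570 and 447). Next came klar, which regulates droplet transport in embryos (188.8, rank 781), and Pcyt1, the enzyme of phosphatidylcholine synthesis at growing droplets (129.1, rank 1320). The peaks of alphaCOP, puml and klar are shared with a neighbouring promoter (CG13919, TTLL12 and BORCS6). Other genes of this list were picked out after their values were seen. Of the further COPI genes, gammaCOP was bound (93.3, rank 2035), while betaCOP, beta'COP, deltaCOP and zetaCOP were not. The strongest gammaCOP promoter summit of replicate 3 ranked only 12688, though the gene counts as matched. Jabba, Seipin, Fitm, Ldsdh1, sturkopf and Dgat2 were not bound either. Seipin (signal 154.3, rank 133) and sturkopf (117.8, rank 262) had strong promoter summits in replicate 3. Neither had any promoter summit in replicate 1 or the pooled list. Without replicate 1 the count was 14 of 24 (18.4% of all genes), with beta'COP, Seipin and sturkopf among them. Without replicate 3 it was 8 (18.6% of all). In this list 54.2% of the genes have 1 TSS, fewer than among all genes.

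Of 23 genes that signal to or control lipolysis, 10 were bound (43.5%, against 18.1% of all protein-coding genes). Of these, 6 had an IDR summit matched in both replicates (15.2% of all). A match can be a replicate summit of any rank, background regions included. Lkb1 and SERCA were picked out after their values were seen. Lkb1 counts as matched, yet its strongest promoter summit in replicate 3 ranked 13776. SERCA does not count as matched, and its strongest promoter summits ranked 14918 in replicate 1 and 7736 in replicate 3. The strongest peak was at Sik3, the kinase that restrains bmm in fed flies (signal 258.5, rank 470, replicate ranks of 482 and 536). Next were bigmax, the partner of the sugar sensor Mondo (179.6, rank 833, a peak shared with Hmu), sima, the fly hypoxia-inducible factor (136.3, rank 1234), and Mondo itself (100.1, rank 1861). The Mondo summit was not matched in both replicates. Without replicate 3 the count was 10, against 18.6% of all genes, with Pka-C1 and foxo in place of SERCA and Sirt6. Without replicate 1 it was 4 (Hnf4, Sik3, bigmax and sima), or 17.4%, no higher than the 18.4% of all genes. A single TSS was annotated for 39.1% of the list. The hormone gene Akh, its receptor gene AkhR, and HDAC4, picked out after their values were seen, had no promoter summit in any peak list. The gene foxo, picked out in the same way, was not bound, but its pooled promoter summit was just outside the IDR list (signal 59.3, rank 3643). It was bound among the 3607 strongest peaks of replicate 1 (rank 2136), and its rank in replicate 3 was 9175. Among genes of this list with no IDR promoter summit, norpA and Pka-C1, also picked out after their values were seen, had an IDR peak in an intron. That in Pka-C1 had a signal of 81.0 (rank 2456) and lay 676 bp downstream of a TSS. The peak in norpA, a phospholipase C gene best known from vision, had a signal of 1147.6 (rank 15) and lay 1360 bp downstream of a TSS.

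**Figure D3:**
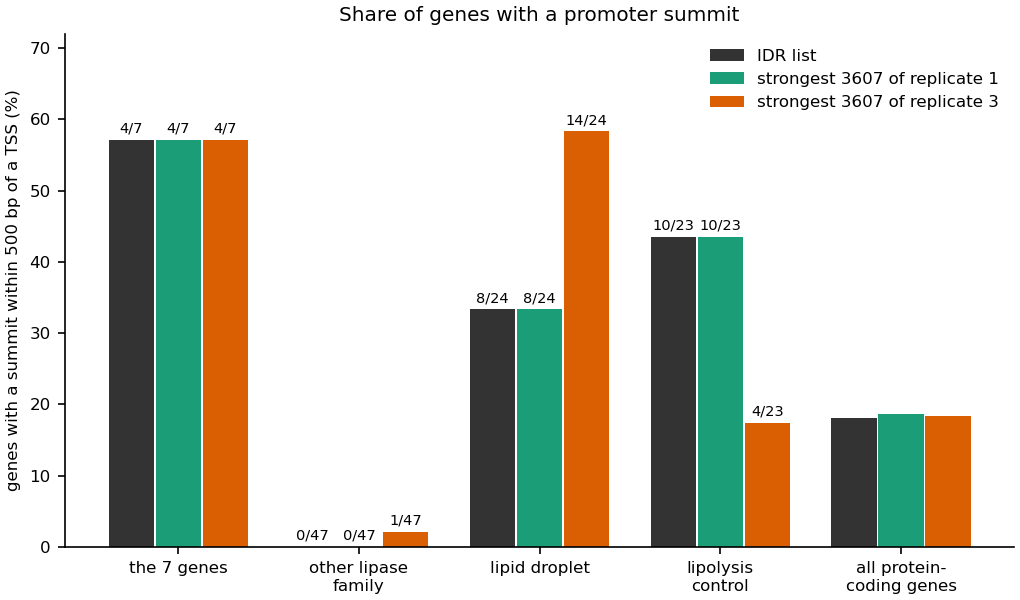
Percent of genes with a summit within 500 bp of a TSS in the IDR list and in the 3607 strongest peaks of each replicate, for the 7 genes, 3 lists of other genes and all 13945 protein-coding genes, with counts above the bars. The 7 genes give 4 of 7 in each set, while the droplet list goes from 8 to 14 of 24 and the control list from 10 to 4 of 23 between replicates 1 and 3.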

How the data were processed

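ChIP-seq of Hr96 fused to GFP was represented by peak lists on dm6 for replicate 1, replicate 3, the pooled replicates and the final IDR list. Per the text deposited with the samples, the first 3 lists were made from the replicates' alignments and 1 shared control file, and the IDR list from those 3. The sources used here name no aligner, peak caller, version or IDR threshold. The authors' signal (column 7) and −log10 q-value (column 9, not printed) were identified by the narrowPeak column order. The dm3 lists were not used here. One label names Hr96 as the antibody, and the description of an antibody to GFP was followed.

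Summits were assigned to Ensembl BDGP6 genes within 500 bp of a TSS and matched between lists within 100 bp, whatever the rank of the match. The members and lists were chosen with earlier results of these data known. Of 95 list entries all matched a gene, 1 by a synonym that duplicated another entry. Text names the 7 members, genes sharing their promoter peaks, the 4 strongest per list and the 2 genes most alike in rank per bound member. Peak assignment was tested on simulated data. No test between groups was possible with 1 group, and spread is shown by giving both replicates. The labels call them biological replicates. Limits on a share of 0 use 3 counts and cover counting error only. Alternatives varied the TSS window, the matching distance and the peak set. The tools were pandas 2.3.3 and numpy 2.4.6 under Python 3.11.15, with matplotlib 3.10.9 for plots. The sequence under the Lip4 summit is not reported here.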

Additional observations from a re-analysis of the deposited data

How the results depend on the processing

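Shares of all protein-coding genes under the same setting are given in brackets. The count of 4 bound genes among the 7 (18.1%) was 3 with a TSS window of 250 bp (15.0%). It was 4 with 1000 bp (20.5%) or with gene bodies (21.1%). It was 5 in the whole pooled list, with Lip4 added (39.5%), and 2 among the 1803 strongest IDR peaks (11.3%). Leaving out either replicate gave 4 (18.4% without replicate 1, 18.6% without replicate 3). The count of 2 genes matched in both replicates (15.2%) was 3 when matches within 200 bp were allowed, with CG5966 added (16.5%). It was 2 under the other settings (11.0 to 17.5%). For the 47 other lipase genes the count of 0 became 2 with gene bodies (21.1% of all genes) and 16 in the pooled list (39.5%). It was 1 without replicate 1 (18.4% of all genes) and 0 without replicate 3 (18.6%). For the 24 droplet genes 8 became 14 without replicate 1 (18.4% of all genes) and stayed 8 without replicate 3 (18.6%). For the 23 control genes 10 became 3 among the 1803 strongest peaks, or 13.0% against 11.3% of all genes. In the pooled list it became 16, or 69.6% against 39.5%. It was 4 without replicate 1 (18.4% of all genes) and 10 without replicate 3 (18.6%). The causes were not tested. No paired analysis was possible because the samples form 1 group. Depth is unknown, so a missing peak is not shown to be a missing site, and no untagged sample shows which peaks need Hr96.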
